A study of Mus musculus with 8 samples.

Results

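Bone morphogenetic protein (BMP) genes were examined in isolated pancreatic islets of mice with and without a β-cell deletion of Tead1. The 10 genes were the ligands Bmp2, Bmp4, Bmp5 and Bmp7, the receptors Bmpr1a and Bmpr2, the inhibitory SMADs Smad6 and Smad7, and the targets Id1 and Id3. They were taken by name from the 48709 genes of the deposited tables. Islets came from 1-year-old C57BL/6 mice of 2 genotypes, β-Tead1-KO and Flox/Flox (Flox for short), with 2 libraries each and 2 sequencing lanes per library. The labels place the loss of Tead1, a DNA-binding partner of the Hippo coactivators YAP and TAZ, in the insulin-producing β-cells. The sources used here do not give the Cre driver or the deleted exons, nor whether Flox/Flox animals carried any Cre. Per the design text each library pooled 3 samples, while the sample descriptions carry 1 or 2 animal-like numbers, so the pool size is unclear. The descriptions give each library different numbers but do not say that they are animals, so the p-values measure only the spread between these libraries.

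BMPs are secreted dimers that bring type I receptors such as Bmpr1a together with type II receptors such as Bmpr2. The type I receptor kinase phosphorylates Smad1, Smad5 and Smad9, which enter the nucleus with Smad4 and induce targets that include the Id genes and the feedback inhibitors Smad6 and Smad7. Id proteins bind basic helix-loop-helix factors and keep them off DNA. In mouse β-cells, signalling through Bmpr1a is known to be needed for normal glucose-stimulated insulin release.

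Promoters of 6 of the 10 genes (Bmp4, Bmp5, Bmpr1a, Bmpr2, Smad6 and Id3) matched the RefSeq promoter table of build GRCm38.p6, which holds 250 bases before to 50 after each start. Each was searched on both strands for a TEAD element (GGAATG, or CATTCC on the other strand), the palindromic SMAD-binding element GTCTAGAC and the GC-rich SMAD element GGCGCC, none of which overlap in these windows. These motifs stand in 14.7%, 0.213% and 11.9% of the 32851 promoters in the table. Id3 was the only one of the 6 with the TEAD letters and Smad6 the only one with the palindrome, and both sequences are shown for that reason, 5′ to 3′ on the gene's strand with the motif in capitals. Bmpr1a and Bmpr2 each held the GC-rich element, and Bmp4 and Bmp5 held none of the 3. The Id3 window is chr4:136143572-136143871 (plus strand), with its motif starting at position -203 from the RefSeq start, which lies inside the gene interval of the files. For Smad6 it is chr9:64022010-64022309 (minus strand), with its motif starting at -4.
Id3: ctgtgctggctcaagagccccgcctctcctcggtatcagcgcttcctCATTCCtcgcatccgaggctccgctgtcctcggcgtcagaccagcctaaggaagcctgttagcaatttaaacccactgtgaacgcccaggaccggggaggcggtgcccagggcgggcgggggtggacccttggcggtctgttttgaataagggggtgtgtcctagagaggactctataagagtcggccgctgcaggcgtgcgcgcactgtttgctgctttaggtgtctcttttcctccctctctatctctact
Smad6: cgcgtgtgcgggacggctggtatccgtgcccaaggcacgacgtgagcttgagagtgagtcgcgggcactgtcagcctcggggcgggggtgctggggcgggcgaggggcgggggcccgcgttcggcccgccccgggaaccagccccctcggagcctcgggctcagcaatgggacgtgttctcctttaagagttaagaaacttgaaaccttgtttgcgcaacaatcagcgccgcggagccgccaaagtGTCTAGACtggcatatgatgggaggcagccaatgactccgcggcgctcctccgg
A match is a run of letters and was not read as a bound site. Neither Id3 nor Smad6 passed the test between genotypes.

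Exon reads totalled 22352518 and 26387280 in libraries labelled β-Tead1-KO and 21938244 and 14069569 in Flox libraries 1 and 2. Intron reads made up 29.4% and 38.0% of gene reads in libraries labelled β-Tead1-KO, against 28.8% and 43.2% in Flox, so the second library of each genotype was the richer in intron reads. Tead1 had 136 and 163 CPM (exon reads per library scaled to a common total with TMM, which evens out library composition) in libraries labelled β-Tead1-KO and 101 and 124 in Flox. Its total was thus higher in both libraries labelled β-Tead1-KO, without passing (log2 fold change 0.41, edgeR adjusted p = 0.347). On reads that cross an exon-exon junction its log2 fold change was 0.10 (edgeR adjusted p = 0.849). In the annotation 2 genes overlap Tead1, 1 of them antisense, with at most 116 exon reads in a library. Tead1 intron reads were at 430 and 898 CPM in libraries labelled β-Tead1-KO against 149 and 222 CPM in Flox (log2 fold change 1.84, edgeR adjusted p = 0.318, unadjusted p = 0.0125). These values do not show a loss of Tead1. They are sums over all exons, junctions or introns and over every cell type of the islet. As the deleted exons are not given, such sums are no check of the labels. Why Tead1 was not lower was not tested. Every direction given here rests on those labels. The β-cell markers summed to 212218 and 184776 CPM in libraries labelled β-Tead1-KO and 219387 and 222768 CPM in Flox, mostly from Ins2, so RNA of β-cells was abundant in all 4 libraries. Of the 8 markers 5 were below Flox in both libraries labelled β-Tead1-KO and 1 above, with 1 called lower, the glucose transporter Slc2a2 (log2 fold change -2.30, edgeR adjusted p = 0.0139). Over all tested genes 24.2% lay below in this way, 23.9% above, and 1.6% were called lower. In bulk RNA, fewer cells of a type and less RNA per cell cannot be told apart.

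Of the 10 genes, Bmp2 alone rose past the threshold (edgeR, adjusted p below 0.05), and none fell. Over all 15014 tested genes, 1.76% were called higher and 1.6% lower in libraries labelled β-Tead1-KO. Of the 10, 9 were higher on average and 1 was lower, with a median log2 fold change of 0.36 and a range of -0.33 to 5.78, against a median of -0.01 over all genes tested. Both libraries labelled β-Tead1-KO lay above both Flox libraries for 5 genes (Bmp2, Bmp4, Bmp5, Smad7 and Id1) and below them for 0, while over all tested genes 23.9% lay above and 24.2% below. Bmp2 and Bmp4 passed the filter on low counts through libraries labelled β-Tead1-KO alone, so these counts are a description. On DESeq2, which called 3.83% of genes higher, 2 of the 10 were called higher, Bmp2 and Smad7.

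**Figure D1:**
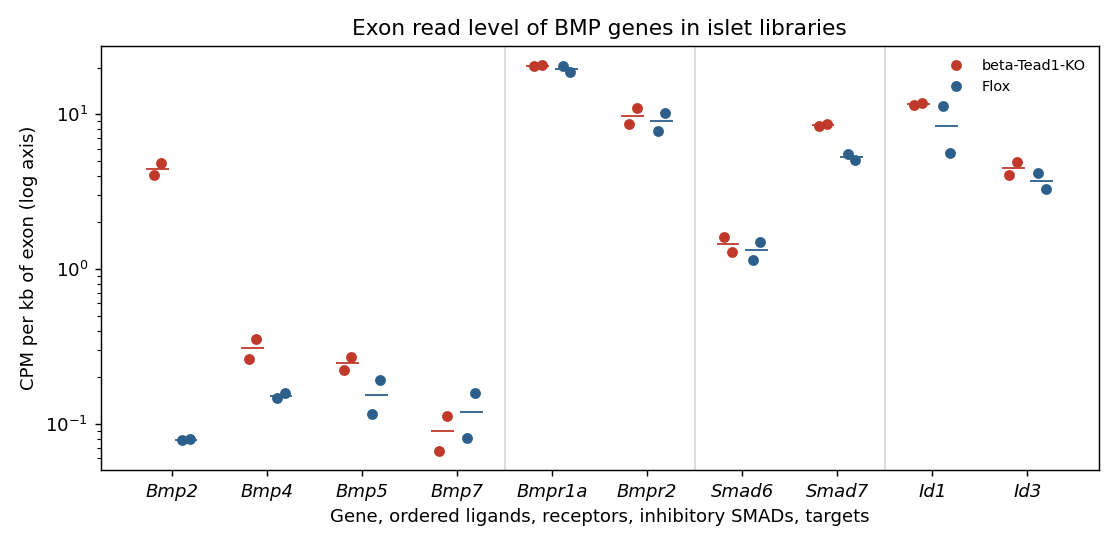
Exon level of each gene in CPM per kilobase of exon (log axis), with 1 point per library, libraries labelled β-Tead1-KO left of Flox, and a line at the mean of 2 libraries. Bmp2 sits at 4.03 and 4.81 in libraries labelled β-Tead1-KO and at 0.0783 and 0.0793 in Flox, while the points of Bmpr1a lie between 18.7 and 20.7 in all 4 libraries.

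Bmp2, a ligand that signals through Bmpr1a and Bmpr2 and is best known for inducing bone, lies on chromosome 2 (ENSMUSG00000027358, mm10, 133552159 to 133562885, plus strand, 3 exons in the files). It had 320 and 456 exon reads in libraries labelled β-Tead1-KO and 6 and 4 in the Flox libraries. Scaled, these were 14.3 and 17.1 CPM in libraries labelled β-Tead1-KO against 0.278 and 0.282 CPM in Flox. Both Flox libraries were near silence and both others were far above them, with no overlap. The log2 fold change was 5.78 (SE 0.31, edgeR adjusted p = 0.00226, n = 2 per genotype). Taken as pooled counts, the ratio was 56.6, with an exact 95% interval of 30.61 to 118.5 that covers counting error only. Each library labelled β-Tead1-KO over each Flox library gave ratios of 50.8 to 61.4, and the difference between libraries of a genotype was 1.19-fold within β-Tead1-KO and 1.01-fold within Flox. By lane there were 157 and 163 reads in library 1 and 215 and 241 in library 2 labelled β-Tead1-KO, against 2 and 4 in Flox library 1 and 4 and 0 in Flox library 2. The difference was thus present in each lane. Since Bmp2 passed the filter through 1 genotype, it was also fitted with no filter, which gave 5.83 (edgeR adjusted p = 0.0022).

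Bmp2 intron reads rose as well. There were 51 and 153 of them in libraries labelled β-Tead1-KO and 0 and 1 in Flox, which on the intron scale was 6.83 and 7.69 CPM in libraries labelled β-Tead1-KO and 0 and 0.0619 CPM in Flox. The log2 fold change was 7.13 (SE 0.92, edgeR adjusted p = 0.0091). The pooled count ratio was 164.6 with an exact 95% interval of 29.22 to 6534. Over the 14443 genes tested on intron reads, 0.429% were called higher and 0.318% lower. Leaving out library 1 or library 2 labelled β-Tead1-KO ended the intron call, with edgeR adjusted p-values of 0.193 and 0.124, while the log2 fold change was 7.28 without library 1. A fit that leaves 1 library in a group assumes that it varies like the others. Reads that cross an exon-exon junction made up 7.5% (exact 95% interval 4.86 to 10.9) and 5.70% (3.76 to 8.24) of the Bmp2 exon reads in libraries labelled β-Tead1-KO. The gene also rose when junction reads were fitted by themselves, by 4.92 on the log2 scale (edgeR adjusted p = 0.0298). No annotated gene overlaps Bmp2, and its reads were unique in every library.

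The other ligands were scarce. Bmp4, a close relative of Bmp2 (chromosome 14, 46383520 to 46390669, minus strand), had 13 and 21 exon reads in libraries labelled β-Tead1-KO and 7 and 5 in Flox, which was 0.582 and 0.788 CPM in libraries labelled β-Tead1-KO and 0.325 and 0.352 CPM in Flox. Its groups did not overlap, yet its log2 fold change of 1.02 had an SE of 0.65 and an edgeR adjusted p of 0.513. Bmp5, a ligand of cartilage development (chromosome 9, 75775364 to 75900310, plus strand), had 0.896 and 1.09 CPM in libraries labelled β-Tead1-KO against 0.464 and 0.775 CPM in Flox (log2 fold change 0.72, edgeR adjusted p = 0.584). Only 60% of the Bmp5 exon reads of all libraries together were unique, so its level is uncertain. Bmp7, a ligand of kidney and brown fat development (chromosome 2, 172868012 to 172940321, minus strand), had 0.269 and 0.450 CPM in libraries labelled β-Tead1-KO and 0.325 and 0.634 CPM in Flox. Those groups overlapped (log2 fold change -0.33, edgeR adjusted p = 0.881). These 3 ligands had 5 to 29 exon reads per library, and the SEs of their log2 fold changes were 0.55 to 0.78, so small changes were not detectable at this depth.

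Per kilobase of exon, the 4 ligands together reached 4.58 and 5.55 CPM per kb in libraries labelled β-Tead1-KO and 0.421 and 0.588 CPM per kb in Flox. Bmp2 supplied 88.0% and 86.7% of that sum in libraries labelled β-Tead1-KO, against 18.6% and 13.5% in Flox. It was the highest of the 4 in libraries labelled β-Tead1-KO and the lowest of the 4 in Flox. Among all tested genes, its mean level per kb stood at percentile 50.3 in libraries labelled β-Tead1-KO and at percentile 1.07 in Flox. Bmp2 passed the filter on low counts through libraries labelled β-Tead1-KO alone. A low place in Flox among the tested genes was therefore set in part by the filter, and the percentiles are only a description.

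**Figure D2:**
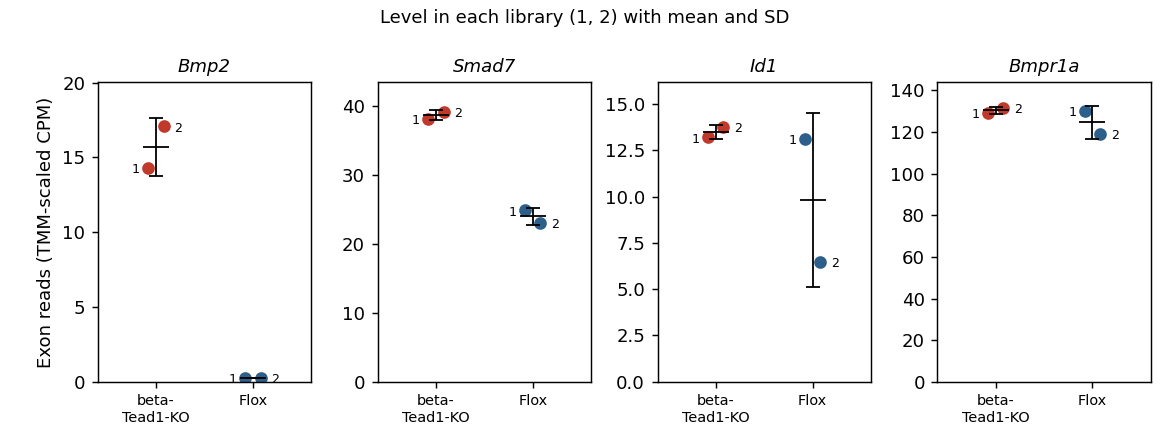
TMM-scaled exon CPM of Bmp2, Smad7, Id1 and Bmpr1a in each library (points numbered 1 and 2), with the mean and SD of 2 libraries, and libraries labelled β-Tead1-KO left of Flox. Bmp2 and Smad7 separate the genotypes beyond the spread drawn, Id1 in Flox runs from 6.48 to 13.1 CPM, and Bmpr1a overlaps.

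The receptors were among the more abundant of these genes, and neither passed the test. Bmpr1a, the type I receptor (chromosome 14, 34410734 to 34503341, minus strand), had 129 and 132 CPM in libraries labelled β-Tead1-KO and 130 and 119 CPM in Flox. Its log2 fold change was 0.07 (SE 0.15, edgeR adjusted p = 0.876), with overlapping groups. Bmpr2, the type II receptor (chromosome 1, 59763400 to 59879014, plus strand), had 116 and 147 CPM in libraries labelled β-Tead1-KO against 105 and 136 CPM in Flox (log2 fold change 0.13, SE 0.21, edgeR adjusted p = 0.821). Library 2 was the higher one in both genotypes for Bmpr2, and the gap between libraries of a genotype, 1.26-fold in β-Tead1-KO and 1.29-fold in Flox, was wider than that between genotypes. The direction of both small differences turned under some alternatives, among them junction reads for Bmpr1a and leaving out a library for Bmpr2. An antisense gene overlaps Bmpr1a and had at most 8 exon reads in a library; those over Bmp5 and Bmp4 had at most 2 and 0, and the use of strand is not stated. Neither receptor passed the test on intron reads (edgeR adjusted p = 0.948 for Bmpr1a and 0.990 for Bmpr2).

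Smad7 and Smad6 block the receptor SMADs. Smad7, which acts on both BMP and TGF-β receptors (chromosome 18, 75367529 to 75395935, plus strand), had 38.2 and 39.2 CPM in libraries labelled β-Tead1-KO against 24.9 and 23.1 CPM in Flox. The groups did not overlap, and all 4 ratios of a library labelled β-Tead1-KO to a Flox library lay between 1.53 and 1.70. The log2 fold change was 0.69 (SE 0.16), and it did not pass (edgeR adjusted p = 0.0915, unadjusted p = 0.00504). It passed by DESeq2 (adjusted p = 0.0256) and with the library number as a block (edgeR adjusted p = 0.0421). Over all genes DESeq2 called 3.83% higher, and the block called 1153 of 15014 in either direction. Without Flox library 1 the log2 fold change of Smad7 was 0.76, and without Flox library 2 it was 0.64. On junction reads alone its log2 fold change was 0.26 (edgeR adjusted p = 0.664). They made up 7.75% (exact 95% interval 6.04 to 9.75) and 9.39% (7.69 to 11.3) of Smad7 exon reads in libraries labelled β-Tead1-KO and 12.1% (9.49 to 15.2) and 11.0% (7.83 to 14.9) in Flox. The intron log2 fold change was 0.23 (edgeR adjusted p = 0.926).

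Smad6, the more BMP-selective inhibitor (chromosome 9, 63953076 to 64022059, minus strand), had 5.20 and 4.13 CPM in libraries labelled β-Tead1-KO and 3.67 and 4.79 CPM in Flox. These groups overlapped, at a log2 fold change of 0.14 with an SE of 0.29 (edgeR adjusted p = 0.856). Its direction turned on junction reads, on lane 1 and without a library. Its intron reads stood at 9.38 and 25.1 CPM in libraries labelled β-Tead1-KO against 7.42 and 9.90 CPM in Flox, with library 2 labelled β-Tead1-KO standing apart from the other three. That intron difference did not pass (log2 fold change 0.99, SE 0.51, edgeR adjusted p = 0.628).

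Id1, the classical early BMP target (chromosome 2, 152736251 to 152737410, plus strand), had 13.2 and 13.8 CPM in libraries labelled β-Tead1-KO and 13.1 and 6.48 CPM in Flox. Flox library 1 sat level with libraries labelled β-Tead1-KO, at a ratio of 1.006 between the libraries numbered 1, while Flox library 2 was the low one, at a ratio of 2.12 between those numbered 2. The log2 fold change was 0.45 (SE 0.35, edgeR adjusted p = 0.586). Without Flox library 1 it was 1.07 and without Flox library 2 it was 0.04, so 1 Flox library decides the value. Id3 (chromosome 4, 136143497 to 136145755, plus strand) had 7.30 and 8.85 CPM in libraries labelled β-Tead1-KO against 7.47 and 5.85 CPM in Flox, with overlapping groups (log2 fold change 0.27, SE 0.25, edgeR adjusted p = 0.653). Flox library 2 was the lowest for both targets. Id3 on junction reads had a log2 fold change of -0.02.

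**Figure D3:**
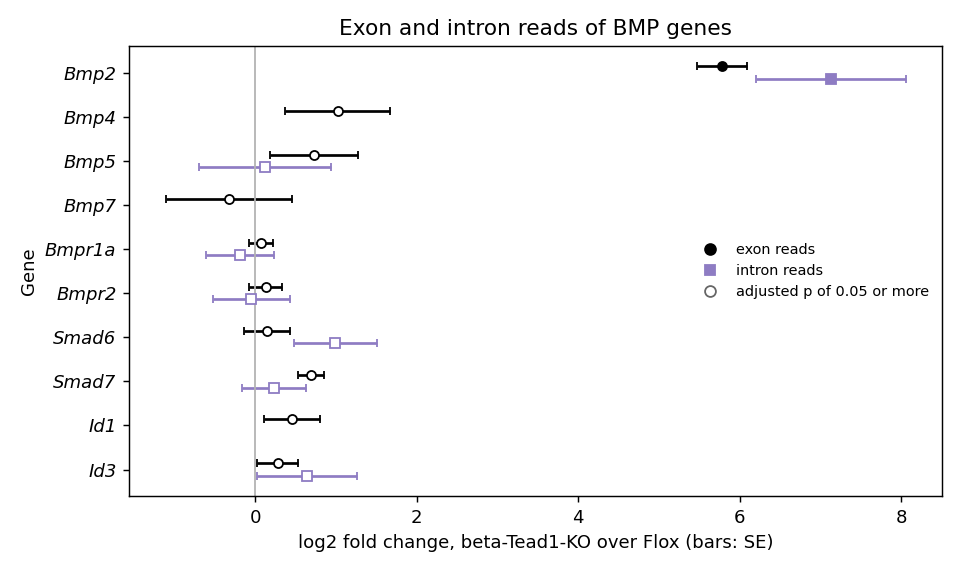
Log2 fold change of each gene, libraries labelled β-Tead1-KO over Flox, on exon reads (circles) and intron reads (squares), with SE bars and filled symbols for an edgeR adjusted p below 0.05. Bmp2 stands at 5.78 on exon reads and 7.13 on intron reads, and every other gene lies between -0.33 and 1.02. Bmp4, Bmp7 and Id1 had too few intron reads to be tested.

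Ordered by mean exon level per kb, the genes ran in libraries labelled β-Tead1-KO as Bmpr1a (20.5 CPM per kb), Id1 (11.6), Bmpr2 (9.79), Smad7 (8.55), Id3 (4.51), Bmp2 (4.42), Smad6 (1.45), Bmp4 (0.308), Bmp5 (0.246) and Bmp7 (0.0894). Their library values overlapped between Bmpr2 and Smad7, between Id3 and Bmp2, and between Bmp4 and Bmp5. The order in Flox was Bmpr1a (19.6 CPM per kb), Bmpr2 (8.98), Id1 (8.46), Smad7 (5.30), Id3 (3.72), Smad6 (1.32), Bmp5 (0.154), Bmp4 (0.152), Bmp7 (0.119) and Bmp2 (0.0788). There Bmpr2 overlapped Id1, and Bmp4, Bmp5 and Bmp7 overlapped each other. Bmp2 held place 6 of 10 in libraries labelled β-Tead1-KO and place 10 in Flox.

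A wider list of 57 BMP pathway genes, chosen by role, had 37 genes with enough reads to test. Of these 1 was called higher, Bmp3, and 0 lower (edgeR), against 1.76% higher and 1.6% lower over all tested genes. DESeq2 called 5 higher and 1 lower, against 3.83% higher and 3.76% lower over all its tested genes. An unadjusted p below 0.05 was reached by 11 of the 37, and by 16.8% of all tested genes. The median log2 fold change was 0.31 against -0.01 over all tested genes. Both libraries labelled β-Tead1-KO lay above both Flox libraries for 21 of the 37 and below them for 7. Over all tested genes 23.9% lay above and 24.2% below. Bmp3, a ligand known to oppose osteogenic BMP signals, had 77.1 and 104 CPM in libraries labelled β-Tead1-KO against 13.8 and 6.91 CPM in Flox. It rose by 3.13 on the log2 scale (SE 0.37, edgeR adjusted p = 0.016), though the call was lost without library 2 labelled β-Tead1-KO (2.91, edgeR adjusted p = 0.0755) and with exon and intron reads summed (3.07, edgeR adjusted p = 0.108), where the fold changed little. All 14 BMP ligands of both lists summed to 16.2 and 21.3 CPM per kb in libraries labelled β-Tead1-KO and 2.98 and 2.38 CPM per kb in Flox, and Bmp3 made up 64.2% and 66.3% of it, against 62.4% and 39.3% in Flox. Bmp6, a ligand with a part in iron control, had 2.69 and 3.34 CPM in libraries labelled β-Tead1-KO and 1.53 and 1.90 CPM in Flox, and did not pass (log2 fold change 0.82, edgeR adjusted p = 0.308).

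None of the 8 other receptors and coreceptors tested was called, and their median log2 fold change was -0.02 with a range of -0.40 to 0.45. Eng, an endothelial coreceptor and on the mean of all libraries the most abundant of them per kb of exon, had 46.5 and 46.8 CPM in libraries labelled β-Tead1-KO against 38.8 and 44.5 CPM in Flox (log2 fold change 0.17, edgeR adjusted p = 0.671). In Flox alone Acvr2a and Rgmb, at 11.4 and 10.6 CPM per kb, stood above Eng at 10.3 CPM per kb. Among the 4 signal SMADs 0 were called. Smad4, the shared partner of receptor SMADs, had 75.4 and 75.8 CPM in libraries labelled β-Tead1-KO and 59.7 and 62.6 CPM in Flox (log2 fold change 0.31, edgeR adjusted p = 0.377).

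None of the 11 extracellular antagonists and modulators tested passed (edgeR, 6 at an unadjusted p below 0.05, a level that 16.8% of all tested genes reached), with 6 higher and 5 lower on average. DESeq2 called 1 of them higher and 1 lower. Of the 11, Tll1, a protease of the Bmp1 family, had a log2 fold change of 1.54 and the antagonist Sost -1.57 (edgeR adjusted p = 0.172 and 0.139). Both were scarce, and DESeq2 called neither. Tll1 had 32 and 45 exon reads in libraries labelled β-Tead1-KO and 11 and 8 in Flox. Sost had 12 and 18 in libraries labelled β-Tead1-KO and 39 and 26 in Flox. Twsg1, a BMP-binding modulator, was the most abundant per kb of exon, with 754 and 718 CPM in libraries labelled β-Tead1-KO against 492 and 349 CPM in Flox (log2 fold change 0.81, edgeR adjusted p = 0.165). The DESeq2 call higher was this gene (adjusted p = 0.00718). Its edgeR log2 fold change was 1.09 without Flox library 1 and 0.58 without Flox library 2. Among the 6 intracellular and membrane inhibitors the median was 0.60 and 0 passed (edgeR, 2 at an unadjusted p below 0.05), while DESeq2 called 2 higher. Tob1, an antiproliferative protein that binds SMADs, had 278 and 291 CPM in libraries labelled β-Tead1-KO and 212 and 87.8 CPM in Flox (log2 fold change 0.93, edgeR adjusted p = 0.329). Its value rests on the Flox libraries, since it was 1.71 without Flox library 1 and 0.43 without Flox library 2. Bambi, a pseudoreceptor without kinase activity, was named after its values were seen. It had 253 and 172 CPM in libraries labelled β-Tead1-KO against 74.7 and 27.8 CPM in Flox (log2 fold change 2.05, SE 0.48, edgeR adjusted p = 0.0966). Bambi passed by DESeq2 (adjusted p = 3.33e-05), on junction reads (edgeR adjusted p = 0.0404) and with the block (edgeR adjusted p = 0.00299). It did not pass with exon and intron reads summed (1.89, edgeR adjusted p = 0.331) or on unique exon reads (edgeR adjusted p = 0.0661). Nor did it pass by limma-voom (adjusted p = 0.0872). Leaving out a library gave log2 fold changes of 1.51 to 2.95.

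The 6 other BMP targets tested had average log2 fold changes of 0.70 to 1.70, and 0 passed (edgeR, 2 at an unadjusted p below 0.05, and 1 by DESeq2). Runx2 passed the filter on low counts through libraries labelled β-Tead1-KO alone, and Msx1 through those and 1 Flox library, so the shared direction is only a description. Id2, a relative of Id1 and Id3, had 26.9 and 44.1 CPM in libraries labelled β-Tead1-KO and 18.3 and 7.05 CPM in Flox (log2 fold change 1.48, SE 0.48, edgeR adjusted p = 0.194). Its groups did not overlap, and DESeq2 called it higher (adjusted p = 0.0178). The value of Id2 depended on the libraries of both genotypes. It was 2.34 without Flox library 1 and 0.96 without Flox library 2. Without library 1 labelled β-Tead1-KO it was 1.82, and without library 2 so labelled it was 1.10. Atoh8, named after its values were seen, had 2.60 and 4.46 CPM in libraries labelled β-Tead1-KO against 1.11 and 1.06 CPM in Flox (log2 fold change 1.70, edgeR adjusted p = 0.106). Leaving out a library gave log2 fold changes of 1.27 to 2.06 for it. Flox library 2 was the lowest library for Id1, Id2, Id3 and Tob1.

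**Figure D4:**
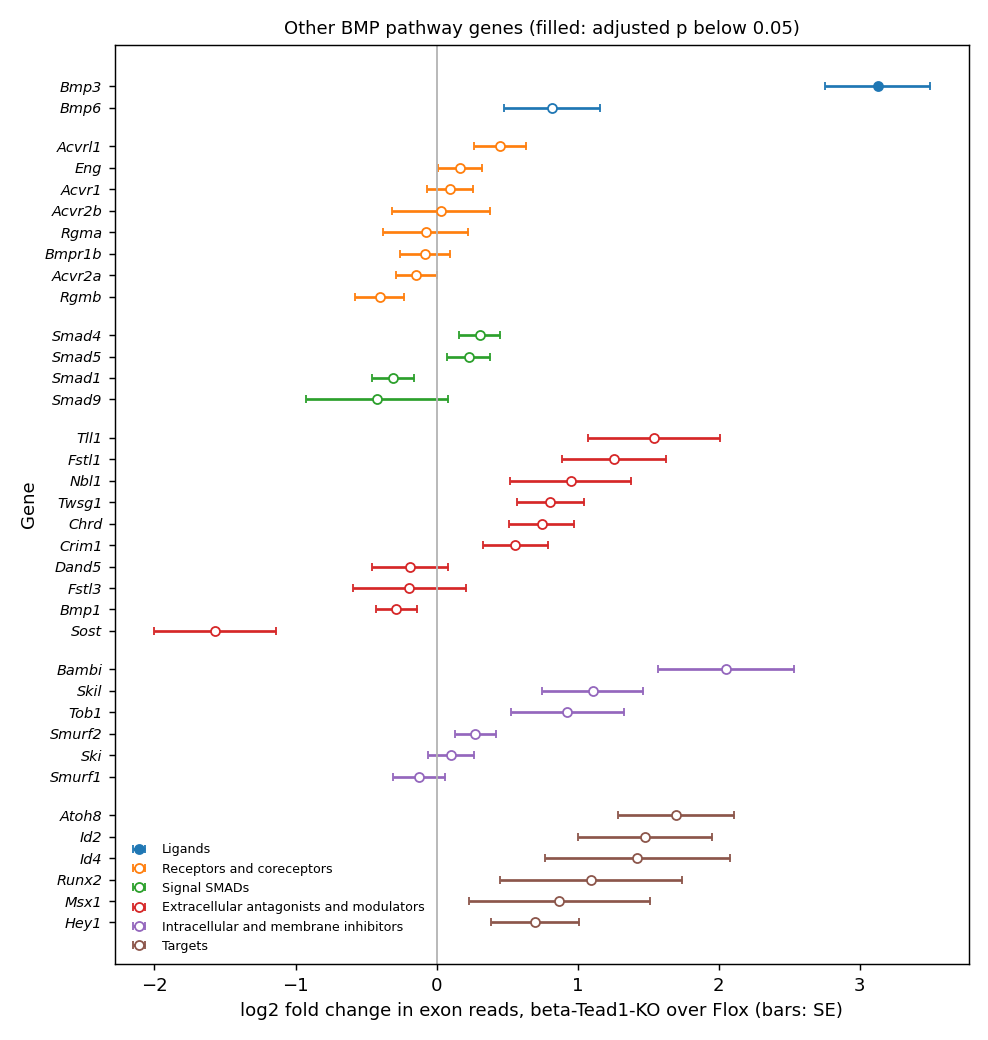
Log2 fold change in exon reads, libraries labelled β-Tead1-KO over Flox, of the tested genes of the wider list, less 1 that is not shown, with SE bars, grouped and coloured by role. Bmp3 at 3.13 is the only filled symbol (edgeR adjusted p below 0.05), and the receptors lie between -0.40 and 0.45.

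Summed levels of several other cell types' markers differed between the genotypes beside these results. All 8 mesenchymal markers were above Flox in both libraries labelled β-Tead1-KO, with 2 called higher, and the list summed to 310 and 283 CPM in libraries labelled β-Tead1-KO against 234 and 192 CPM in Flox. Endothelial markers summed to 505 and 498 CPM in libraries labelled β-Tead1-KO and 457 and 427 CPM in Flox, with 6 of 8 above. Macrophage markers summed to 144 and 121 CPM in libraries labelled β-Tead1-KO against 105 and 102 CPM in Flox, with 2 of 7 above. Erythroid markers summed to 316 and 235 CPM in libraries labelled β-Tead1-KO against 121 and 52.4 CPM in Flox, with 5 of 5 above and 1 called. Over all tested genes 23.9% lay above both Flox libraries in this way and 1.76% were called higher. Between libraries these marker sums differed by 1.09 to 1.18-fold for endothelial, 1.21 to 1.61-fold for mesenchymal, 1.15 to 1.42-fold for macrophage and 1.94 to 6.03-fold for erythroid markers, against 50.8 to 61.4-fold for Bmp2 and 1.53 to 1.70-fold for Smad7. The mesenchymal sums were mostly Rgs5, at 174 and 174 CPM in libraries labelled β-Tead1-KO and 174 and 146 CPM in Flox. C1qa was the largest part of the macrophage sums, at 84.2 and 78.3 CPM in libraries labelled β-Tead1-KO and 38.3 and 49.3 CPM in Flox. Log2 fold changes of the 8 mesenchymal markers ran from 0.12 (Rgs5) to 2.24 (Lum). Those of the macrophage markers ran from -1.54 (Lyz2) to 0.89 (C1qa). The summed endocrine lists were lower in libraries labelled β-Tead1-KO. The α-cell markers summed to 9377 and 7459 CPM in libraries labelled β-Tead1-KO and 17151 and 13316 CPM in Flox, and the δ-cell markers to 622 and 465 CPM in libraries labelled β-Tead1-KO and 1808 and 2071 CPM in Flox. Polypeptide-cell markers summed to 1077 and 572 CPM in libraries labelled β-Tead1-KO and 2436 and 2615 CPM in Flox. Acinar markers overlapped between genotypes and were high in library 2 of each, at 813 and 6771 CPM in libraries labelled β-Tead1-KO and 1618 and 5632 CPM in Flox. Ratios between any such pair were 0.980 to 1.38 for the ductal list and 0.766 to 0.945 for the Schwann and neural list. In the mesothelial list Msln, at 0.0896 and 0.113 CPM in libraries labelled β-Tead1-KO and 7.94 and 28.8 CPM in Flox, made up most of the Flox sums, while Upk3b and Wt1 had 0 to 4 reads in every library. The 4 markers summed to 0.761 and 0.375 CPM in libraries labelled β-Tead1-KO and 8.40 and 32.3 CPM in Flox. None of these lists had a marker at 0 in all libraries. Their part in the values of the BMP genes was not tested.

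The genes whose exon pattern was most like that of Bmp2 were Gulp1, an engulfment adaptor, Smoc2, a matrix-associated calcium-binding protein, and Iqsec3, an exchange factor for Arf proteins. Likeness was the root mean square difference of centred log2 (CPM + 0.05) over the 4 libraries, which gave 0.117 for Gulp1, 0.262 for Smoc2 and 0.308 for Iqsec3 among 12918 protein-coding genes with a mean of at least 1 CPM. Gulp1 had 28.9 and 32.3 CPM in libraries labelled β-Tead1-KO against 0.557 and 0.705 CPM in Flox. Smoc2 had 6.27 and 6.41 CPM in libraries labelled β-Tead1-KO against 0.139 and 0.141 CPM in Flox. Iqsec3 had 38.6 and 41.5 CPM in libraries labelled β-Tead1-KO against 0.464 and 0.564 CPM in Flox. With 4 libraries in 2 groups, any gene with a like change and a like spread scores this way.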

How the data were processed

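RNA of isolated islets was sequenced in 8 samples, which are 4 libraries run on 2 lanes each. The deposited tables hold whole-number counts of exon, exon-exon junction and intron reads per gene, per the file headers. Per the submitters' processing notes the reads were placed on mm10. Which aligner, counter, annotation release and strand setting served is not given in the sources used here. The coordinates of the 10 genes matched GENCODE M21 (GRCm38).

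Lanes were summed, since the chi-square of exon counts over its degrees of freedom was 1.07 to 1.20 between lanes and 48.4 and 66.8 between libraries of β-Tead1-KO and Flox. Genes were filtered with filterByExpr (minimum count 10, total 15), scaled with TMM, and tested 2-sided by quasi-likelihood in edgeR 4.0.16 (R 4.3.3, legacy mode off). Adjusted p-values are Benjamini-Hochberg over every gene tested, with calls made below 0.05. The estimated biological coefficient of variation was 24.3%. Each SE is the fold change over the root of its F value. Intron reads were fitted alone. Alternatives used DESeq2 1.42.0, limma 3.58.1 voom, other scalings, filters, reads and lanes, and left out libraries. The fit was tested on simulated data. Count intervals are exact 95% binomial ones and cover counting error only.

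The genes and lists were chosen with earlier results of these data known. All 10 genes are named. From the wider list, genes past the threshold and the most abundant tested gene per kb of each role are named, and Bambi, Atoh8, Sost, Tll1 and Bmp6 stand outside that rule. One antagonist of the list is counted but not reported here by name.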

Additional observations from a re-analysis of the deposited data

How the results depend on the processing

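The 504 genes called on exon reads became 1117 by DESeq2, 61 with exon and intron reads summed, 1153 with the library number as a replicate block, and 67 to 2359 with a library left out. Members called (1 as reported) numbered 2 by DESeq2, 2 with the block, 0 with at least 1 CPM in every library, which removes Bmp2 and leaves 6 members, and 1 to 3 with a library left out. Other BMP genes called (1 as reported) numbered 6 by DESeq2, 2 on junction reads, 0 with exon and intron reads summed and 5 with the block. Over all genes DESeq2 called 3.83% higher and 3.76% lower. The block called 1153 of 15014, junction reads 524 of 12465 and the summed reads 61 of 16970. With at least 1 CPM in every library 426 of 12552 were called. Genes called on intron reads (108 as reported) numbered 314 by DESeq2, 31 with exon library sizes, 755 with the block and 0 to 2459 with a library left out, and members called there (1 as reported) 0 to 1. Bmp2 passed on exon reads in all 16 alternatives that tested it, at log2 fold changes of 4.92 to 6.11 and adjusted p-values of 1.601e-21 to 0.0298, the block included (5.76, adjusted p = 0.000473). The edgeR legacy mode, added after seeing the data, gave 5.78.

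The direction of some differences that did not pass turned. On junction reads the exon log2 fold change was -0.0178 for Bmpr1a, -0.20 for Smad6 and -0.024 for Id3, with exon and intron reads summed it was -0.0197 for Bmpr1a, and on lane 1 it was -0.0702 for Smad6. Leaving out a library gave Bmp7 -0.78 to 0.16, Bmpr2 -0.0369 to 0.32 and Smad6 -0.0309 to 0.34. On intron reads, exon library sizes gave Bmp5 -0.85 and Smad7 -0.21, the block gave Bmp5 -0.0375 and Bmpr2 0.0806, and leaving out a library gave Bmp5 -0.61 to 1.29, Bmpr1a -0.48 to 0.18 and Bmpr2 -0.54 to 0.73. The cause was not tested. Of 332 gene-level alternatives, 300 kept direction and side of the threshold, 9 gained the call, 4 lost it and 19 turned.

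Same-numbered libraries shared deviations between genotypes (r = 0.39 over 15014 genes). Library 2 of each genotype was also the richer in intron reads and in acinar markers. There are only 2 such pairs and no label pairs them, and what they share was not tested. A fit without 1 library assumes that the lone library of its genotype varies like the others. With 2 libraries per genotype, and Flox library 2 the shallowest, small changes in scarce ligands are not detectable.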

Other observations

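Within 1 Mb on either side of Bmp2 the annotation of the files holds 26 other genes, of which 9 are protein coding. The 8 genes there with enough reads to test had log2 fold changes of -1.28 (Fermt1, a kindlin of epithelial adhesion) to 0.81 (Mcm8, a DNA helicase), and 0 were called (edgeR, lowest adjusted p = 0.3003). Chgb, a granin of secretory granules and by far the most abundant of them, had 1434 and 1584 CPM in libraries labelled β-Tead1-KO and 1607 and 1060 CPM in Flox. The flanking noncoding genes A430048G15Rik and Gm14100 had 0 reads in all 4 libraries, and 16 of the 26 were at 0 throughout.

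Of the wider BMP list, 20 genes had too few reads to test. Bmper, a secreted BMP-binding protein of endothelium, had 16 and 10 exon reads in libraries labelled β-Tead1-KO and 3 and 2 in Flox. Gdf6, a ligand of joint development, had 4 and 8 reads in libraries labelled β-Tead1-KO and 0 and 1 in Flox. The antagonist Nog had 1 and 0 reads in libraries labelled β-Tead1-KO and 1 and 0 in Flox, and Gdf5, Msx2 and Hjv had 0 reads in all 4 libraries. These genes were picked after their counts were seen and carry no test.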
